A study of Mus musculus with 7 samples.

Results

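The mRNA decay partners described here are 10 mouse genes: *Cnot1*, *Cnot2*, *Cnot3*, *Cnot6*, *Cnot7* and *Cnot8* of the CCR4-NOT complex, the decapping enzyme gene *Dcp2*, the exonuclease gene *Xrn1*, and the RNA helicase genes *Upf1* and *Mov10*. They were chosen by name from 21928 genes, by a rule that holds no measured value but was set with earlier results of these libraries known, and all transcripts of a gene were summed by its Ensembl identifier. All 10 were among the 13630 genes tested, which had a TPM (transcript abundance scaled by length and library total) of at least 1 in at least 3 of 7 libraries.

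An mRNA is usually degraded after its poly(A) tail has been shortened by the CCR4-NOT deadenylase. The cap is then removed by DCP2 and the body of the message is digested from its 5′ end by XRN1, while UPF1 marks messages for nonsense-mediated decay and MOV10 is a helicase that acts in RNA silencing. In spermatogenic cells, MEIOC is partnered by YTHDC2 and RBM46, RNA-binding proteins that bring degrading enzymes to bound messages, so the libraries allow one to ask whether the transcripts of this machinery differ in abundance when MEIOC is missing.

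Bulk RNA-seq libraries were made from postnatal testes of 4 wild-type and 3 *Meioc* KO (*Meioc*-null) C57BL/6N pups, with the RNA of 1.5 testes of 1 pup in each library. Pups of both genotypes received daily WIN18446, which blocks the synthesis of retinoic acid, from P2 to P8 (0.1 mg/g body weight) and retinoic acid itself on P9 (0.0125 mg/g), and testes enriched for preleptotene cells, the germ cells about to enter meiotic S phase, were taken 6.75 days later. *Meioc* was deleted in the whole animal, and the libraries hold the somatic cells of the testis as well as germ cells. Libraries held 12537852 to 20552702 estimated counts, and each member had between 453 (*Cnot3*) and 12491 (*Cnot1*) counts per library. Levels are given as CPM, estimated counts scaled by a library's total after TMM normalization for composition, and fold changes are wild type over *Meioc* KO, so that a positive log2 value is a higher abundance in wild type.

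Transcripts of the targeted gene, *Meioc*, were at 468, 660, 664 and 720 CPM in wild-type replicates 1 to 4 and at 400.3, 299.6 and 413 CPM in *Meioc* KO replicates 1 to 3. Every wild-type library lay above every *Meioc* KO library, although the null allele still gave counts (log2 fold change 0.76, standard error (SE) 0.16, Benjamini-Hochberg adjusted p = 0.021 from the quasi-likelihood test of edgeR). Its adjusted p stayed under 0.05 without wild-type replicate 1 or *Meioc* KO replicate 1 and was 0.057 to 0.064 without any other library, again by edgeR. *Ythdc2*, the helicase of the complex, was at 113 to 194 CPM in wild type and at 91.8 to 106 CPM in *Meioc* KO (log2 fold change 0.73, SE 0.16, adjusted p = 0.024, edgeR). This call too held without wild-type replicate 1 or *Meioc* KO replicate 1 and was lost without any other library (adjusted p 0.061 to 0.087, edgeR), and on log2(TPM + 1) the adjusted p was 0.053 (limma). *Rbm46* was at 71.1 to 105 CPM in wild type and at 79.4 to 87.8 CPM in *Meioc* KO, and its log2 fold change was 0.022 (SE 0.13, adjusted p = 0.93, edgeR). The summed level of 10 germ cell markers was 2275 to 2905 CPM in wild type and 1617 to 1842 CPM in *Meioc* KO, without overlap. *Dazl* alone was at 1018 to 1177 CPM in wild type and at 642.2 to 787.5 CPM in *Meioc* KO. Of the 10, 6 were called higher in wild type, beside 7.77% of all genes, and *Tdrd1* had a negative value (-0.24, not called by edgeR and called lower on log2(TPM + 1) by limma, adjusted p = 0.048). Of these 6 calls, 4 were left without wild-type replicate 2 or *Meioc* KO replicate 2, 3 without wild-type replicate 3 and 1 (*Dazl*) without *Meioc* KO replicate 3. On log2(TPM + 1) 4 of the 6 were called (limma), and 0 were called with the replicate number as a block (edgeR). The summed levels of Sertoli, Leydig, peritubular myoid, endothelial and macrophage markers overlapped between the groups, and most of the Sertoli sum was *Clu*. Of these somatic markers, edgeR called only *Des*, a myoid marker, lower in wild type (-0.37, adjusted p = 0.049). That call was lost without any 1 of the 7 libraries. *Hsd3b1* (-0.47) and *Csf1r* (-0.24) were also lower in wild type without overlap but were not called. Over all genes, 26.2% did not overlap. No marker on the 6 lists was at 3 counts or fewer in every library, and the part of the germ cell marker difference in the values below was not tested.

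None of the 10 decay partners differed between wild type and *Meioc* KO at an adjusted p under 0.05 (0 of 10, edgeR), where 11.1% of all tested genes did. DESeq2 also called 0 of the 10. At an unadjusted p under 0.05, 1 of the 10 passed (*Xrn1*, lower in wild type), against 30.3% of all genes. The log2 fold changes ran from -0.35 (*Mov10*) to 0.16 (*Cnot1*), 5 positive and 5 negative, with a median of -0.0067 beside -0.0065 for all genes. The median size of the change was 0.082 for the members and 0.19 for all genes, which were not matched to the members in abundance. For 9 of the 10 the 95% interval of the difference lay within 1.5-fold in both directions, as it did for 61.8% of all genes; the exception was *Mov10*, with an interval from 0.602-fold to 1.02-fold. In these bulk libraries, fewer cells of a type and less RNA per cell cannot be told apart, and opposite changes in germ and somatic cells would not be seen.

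**Figure D1:**
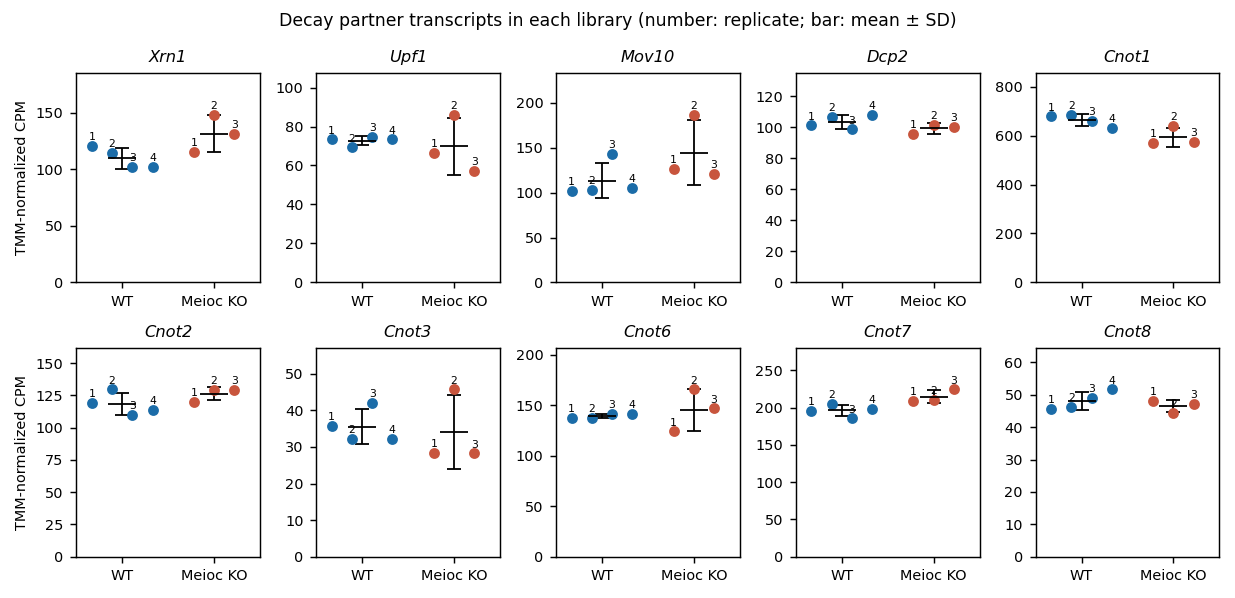
TMM-normalized CPM of the 10 decay partners in each library, with wild type (4 libraries) on the left and *Meioc* KO (3 libraries) on the right of each panel. Numbers are replicates and bars are the mean ± SD; the groups overlap for every gene but *Cnot7*, and *Meioc* KO replicate 2 holds the highest value for *Xrn1*, *Upf1*, *Mov10*, *Cnot3* and *Cnot6*.

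*Cnot1* (chr8:95719451-95807464 of GRCm38, minus strand) encodes the scaffold on which the CCR4-NOT complex is built. It was at 678, 684, 658 and 630 CPM in wild-type replicates 1 to 4 and at 568, 639 and 573 CPM in *Meioc* KO replicates 1 to 3. The *Meioc* KO libraries were mostly lower, but replicate 2 reached into the wild-type range. The mean was 662 ± 24.0 CPM (SD, n = 4) in wild type and 593 ± 39.3 CPM (SD, n = 3) in *Meioc* KO, and the log2 fold change of 0.16 had a 95% interval from -0.0021 to 0.32 (adjusted p = 0.17, edgeR). Once each library's trends with transcript length and GC content had been removed, *Cnot1* was called higher in wild type (log2 fold change 0.22, adjusted p = 0.046, edgeR; 9.83% of all genes were called higher by this fit). On log2(TPM + 1) it was not called (adjusted p = 0.52, limma). The difference there was -0.093, where the median of all genes was -0.23. Relative to that median it was 0.13, so the call did not hold and the direction held only relative to the median.

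*Cnot2* and *Cnot3* encode the pair of subunits that dock together on CNOT1 and stabilize the complex. *Cnot2* (chr10:116485161-116581511) was at 119, 129.6, 110 and 114 CPM in wild type and at 120, 129.5 and 129.5 CPM in *Meioc* KO, in replicate order, and the groups overlapped. Its log2 fold change was -0.10 (SE 0.082, adjusted p = 0.44, edgeR). *Cnot3* (chr7:3645268-3661109) was at 35.8, 32.1, 42.1 and 32.15 CPM in wild type and at 28.35, 45.7 and 28.2 CPM in *Meioc* KO. *Meioc* KO replicate 2 was above every wild-type library and the other *Meioc* KO libraries were below all of them. This spread gave *Cnot3* a SE of 0.18 around a log2 fold change of 0.063, with a 95% interval from -0.34 to 0.46 (adjusted p = 0.84, edgeR).

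*Cnot7* and *Cnot8* encode the CAF1-type deadenylases, of which a complex holds one, and *Cnot6* and *Cnot6l* encode the CCR4-type deadenylases, of which it also holds one. Because each pair is made of paralogs, the separation of their reads was examined first. Coding sequences from GENCODE vM21 are shown around the longest run of bases that the paralogs share, which is in capitals. The run lies in exons 4 and 5 of 7 in *Cnot7* (chr8:40499431-40500762, minus strand, intron included) and in *Cnot8* (chr11:58113203-58113958, plus strand, intron included). It lies in exon 11 of 12 in *Cnot6* (chr11:49677442-49677461, minus strand) and in *Cnot6l* (chr5:96080075-96080094, minus strand).
Cnot7: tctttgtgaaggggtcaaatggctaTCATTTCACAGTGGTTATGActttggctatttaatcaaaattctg
Cnot8: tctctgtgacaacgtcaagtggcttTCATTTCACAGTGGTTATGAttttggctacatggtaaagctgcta
Cnot6: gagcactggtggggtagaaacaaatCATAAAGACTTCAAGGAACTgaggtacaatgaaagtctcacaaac
Cnot6l: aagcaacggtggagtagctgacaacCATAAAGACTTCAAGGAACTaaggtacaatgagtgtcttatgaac
Each shared run is 20 bases long, shorter than the word of 31 bases by which reads were matched to transcripts, although the coding sequences are 72.8% identical over 850 aligned bases for *Cnot7* and *Cnot8* and 73.9% over 1647 for *Cnot6* and *Cnot6l*. No word in these coding sequences can therefore be assigned to both paralogs of a pair. Words shared with other genes annotated in GENCODE vM21 made up 14.7% of the words of *Cnot8*, 27.4% of those of *Cnot3*, 18.9% of those of *Mov10* and 10.6% of those of *Cnot1*. For each of the other members they made up at most 1.17%. The reads were counted on GENCODE Basic vM15, where shared words were not measured. The values of *Cnot8*, *Cnot3*, *Mov10* and *Cnot1* may be less certain in that respect.

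*Cnot7* (chr8:40492540-40515847) was at 196, 205, 186 and 198.5 CPM in wild-type replicates 1 to 4 and at 209, 210 and 224.5 CPM in *Meioc* KO replicates 1 to 3. It was the 1 member of the 10 whose groups did not overlap, with wild type below, where 26.2% of all genes did not overlap. The log2 fold change was -0.13 (SE 0.070, 95% interval -0.29 to 0.029, adjusted p = 0.25, edgeR), so the separation did not pass the test. *Cnot8* (chr11:58104153-58118594) was at 45.8, 46.1, 49.05 and 51.7 CPM in wild type and at 48.2, 44.3 and 47.1 CPM in *Meioc* KO. These ranges overlapped, and the log2 fold change was 0.050 (SE 0.080, adjusted p = 0.70, edgeR).

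*Cnot6* (chr11:49671503-49712723) was at 137.5, 137, 141 and 141 CPM in wild type and at 124, 166 and 147 CPM in *Meioc* KO. The wild-type libraries lay close together, with a coefficient of variation of 1.53%, and the *Meioc* KO libraries spread on both sides of them, with one of 14.3%. The log2 fold change was -0.063 (SE 0.097, adjusted p = 0.69, edgeR), and it was 0.039 without *Meioc* KO replicate 2. *Cnot6l* (chr5:96070333-96164171) had the same spread, at 132 to 137 CPM in wild type and 113 to 164 CPM in *Meioc* KO, and a log2 fold change of -0.058 (SE 0.11, adjusted p = 0.76, edgeR).

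The use of one paralog over the other was compared as the ratio of their TPM within a library, which does not depend on the scaling between libraries. The *Cnot7* to *Cnot8* ratio was 5.13, 5.32, 4.55 and 4.64 in wild type (mean 4.91 ± 0.376, SD, n = 4) and 5.19, 5.66 and 5.74 in *Meioc* KO (mean 5.53 ± 0.30, SD, n = 3). The *Cnot6* to *Cnot6l* ratio was 1.12, 1.17, 1.08 and 1.08 in wild type (mean 1.11 ± 0.0439, SD, n = 4) and 1.23, 1.19 and 1.12 in *Meioc* KO (mean 1.18 ± 0.0545, SD, n = 3). Both ratios overlapped between the groups. The difference in the log2 ratio was -0.17 for the CAF1-type pair and -0.089 for the CCR4-type pair. Each gave p = 0.114 by exact two-sided permutation of the genotype labels over 35 splits (0.114 also after Benjamini-Hochberg adjustment over the 2 ratios). With estimated counts in place of TPM the CCR4-type difference was -0.012 (exact permutation p = 0.743).

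*Dcp2* (chr18:44380502-44424969) encodes the enzyme that removes the cap. It was at 101, 106, 98.6 and 108 CPM in wild-type replicates 1 to 4 and at 95.5, 102 and 100.3 CPM in *Meioc* KO replicates 1 to 3. The groups overlapped, with coefficients of variation of 4.24% in wild type and 3.30% in *Meioc* KO. The log2 fold change was 0.062, with a 95% interval from -0.10 to 0.22 (adjusted p = 0.60, edgeR).

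*Xrn1* (chr9:95954760-96057803) encodes the exonuclease that digests decapped messages from the 5′ end and that YTHDC2 is known to bind. It was at 121, 114, 102 and 102 CPM in wild type and at 115, 148 and 132 CPM in *Meioc* KO. *Meioc* KO replicates 2 and 3 lay above every wild-type library, and replicate 1 lay within the wild-type range. The mean was 110 ± 9.22 CPM (SD, n = 4) in wild type and 132 ± 16.4 CPM (SD, n = 3) in *Meioc* KO. The log2 fold change was -0.26 (SE 0.10), with a 95% interval from -0.49 to -0.029 and an unadjusted p of 0.031 that became 0.13 after Benjamini-Hochberg adjustment over all genes (edgeR). It ran from -0.35 without *Meioc* KO replicate 1 to -0.17 without *Meioc* KO replicate 2, and none of the fits that left out a library called it (adjusted p from 0.052 to 0.33, edgeR).

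*Xrn1* had the smallest p of the members, so the genes most like it in pattern were sought by the Pearson correlation of log2 CPM over the 7 libraries. These were *Nars2* (r = 0.994), *Atp13a4* (r = 0.993) and *N4bp2* (r = 0.992). *N4bp2* was at 91.7 to 118 CPM in wild type and at 114 to 170 CPM in *Meioc* KO, highest in *Meioc* KO replicate 2 like *Xrn1*. None of the 3 was called. With 7 libraries and 13630 genes, high correlations of this kind are a description only.

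*Upf1* (chr8:70331525-70353278) encodes the helicase at the centre of nonsense-mediated decay. It was at 73.35, 69.3, 74.85 and 73.4 CPM in wild type and at 66.6, 85.9 and 57.1 CPM in *Meioc* KO. The wild-type libraries were close together, at a coefficient of variation of 3.31%, and the *Meioc* KO libraries held both the highest and the lowest value, at one of 21.0%. The log2 fold change was 0.060 (SE 0.12, 95% interval -0.22 to 0.34, adjusted p = 0.77, edgeR). It turned to -0.067 without *Meioc* KO replicate 3 and was 0.23 without *Meioc* KO replicate 2.

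*Mov10* (chr3:104794836-104818563) was at 102, 103, 143 and 105 CPM in wild-type replicates 1 to 4 and at 126, 186.5 and 121 CPM in *Meioc* KO replicates 1 to 3. The *Meioc* KO libraries lay above 3 of the wild-type libraries, and wild-type replicate 3 lay among them. The mean was 113 ± 19.7 CPM (SD, n = 4) in wild type and 145 ± 36.3 CPM (SD, n = 3) in *Meioc* KO. Its log2 fold change of -0.35, the furthest from 0 of the members, had a SE of 0.17 and a 95% interval from -0.73 to 0.031 (adjusted p = 0.20, edgeR). It was -0.13 without *Meioc* KO replicate 2 and -0.48 without wild-type replicate 3.

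Several of these spreads involved the same libraries. *Meioc* KO replicate 2 held the highest CPM for 5 of the 10 members, where it did so for 24.5% of all genes. For *Upf1*, *Mov10* and *Cnot3* the 2 highest values were those of *Meioc* KO replicate 2 and wild-type replicate 3, a pair that led for 5.96% of all genes. The transcripts of these 3 genes have a GC content of 57.2% to 58.0%, while those of the other members have one of 38.7% to 48.5%. Across the 13630 genes, which share a library and its depth, the deviation of *Meioc* KO replicate 2 from its group mean had a Spearman's rho of 0.45 with transcript length but one of only 0.056 with GC content. That of *Meioc* KO replicate 1 had a rho of -0.40 with length. That of wild-type replicate 3 had a rho of 0.25 with GC content and that of *Meioc* KO replicate 3 one of -0.31. With the trends with length and GC content removed, the log2 fold change was -0.22 for *Xrn1* and -0.30 for *Mov10*, neither of them called.

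**Figure D2:**
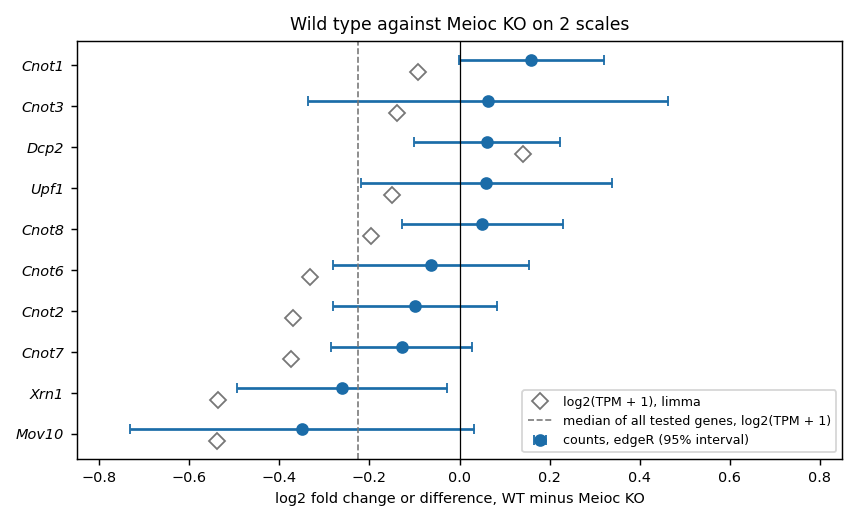
Difference between wild type and *Meioc* KO for each decay partner. Filled circles are edgeR log2 fold changes with 95% intervals, open diamonds are differences of mean log2(TPM + 1), and the dashed line is the median of all tested genes on that scale (-0.23). All intervals but that of *Xrn1* cross 0, and the diamonds of all genes but *Dcp2* lie left of 0.

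The scale changed which members were called. TPM is relative to all transcripts in a library, and on log2(TPM + 1) the median of all genes was itself shifted to -0.23. On that scale 9 of the 10 members were negative and 3 were called lower in wild type (limma with Benjamini-Hochberg adjustment), where 15.3% of all genes were called lower and 3.23% higher. These were *Xrn1* (difference -0.54, adjusted p = 0.044, limma), *Cnot2* (-0.37, adjusted p = 0.048) and *Cnot7* (-0.37, adjusted p = 0.024). Relative to the median of all genes, the differences were -0.31 for *Xrn1*, -0.14 for *Cnot2* and -0.15 for *Cnot7*. *Mov10* (-0.31) and *Cnot6* (-0.11) also lay below that median. The other members lay above it: *Dcp2* (0.37), *Cnot1* (0.13), *Cnot3* (0.086), *Upf1* (0.076) and *Cnot8* (0.029). Values on this scale understate the change of genes with a low TPM.

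Levels of different genes were compared as TPM, which divides by transcript length. *Cnot7* was the most abundant member at 195 ± 29.7 TPM (SD, n = 7 libraries), followed by *Cnot1* at 127 ± 14.0 TPM and *Cnot2* at 113 ± 20.4 TPM. *Cnot6* was at 64.4 ± 13.1 TPM, *Mov10* at 43.7 ± 14.8 TPM, *Xrn1* at 42.2 ± 11.8 TPM and *Cnot8* at 37.5 ± 3.32 TPM. The lowest were *Dcp2* at 29.8 ± 5.21 TPM, *Upf1* at 20.6 ± 4.16 TPM and *Cnot3* at 15.8 ± 4.33 TPM. *Cnot7* was above *Cnot1* in all 7 libraries with no overlap of their ranges. The ranges of all other neighbours in this order overlapped over the 7 libraries. Within libraries, *Cnot2* was above *Cnot6*, *Cnot6* above *Mov10*, *Dcp2* above *Upf1* and *Upf1* above *Cnot3* in 7 of 7, whereas *Mov10* was above *Xrn1* in only 4 and *Xrn1* above *Cnot8* in 5. The place of *Dcp2* above *Upf1* rested on the short transcript Dcp2-202: the long transcript Dcp2-201 alone was at 19.7 ± 2.21 TPM (SD, n = 7 libraries), below *Upf1* in 5 of 7 libraries. The catalytic CAF1-type transcripts were thus mostly those of *Cnot7*, while *Cnot6* and *Cnot6l* were near each other in TPM, as their ratios show.

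**Figure D3:**
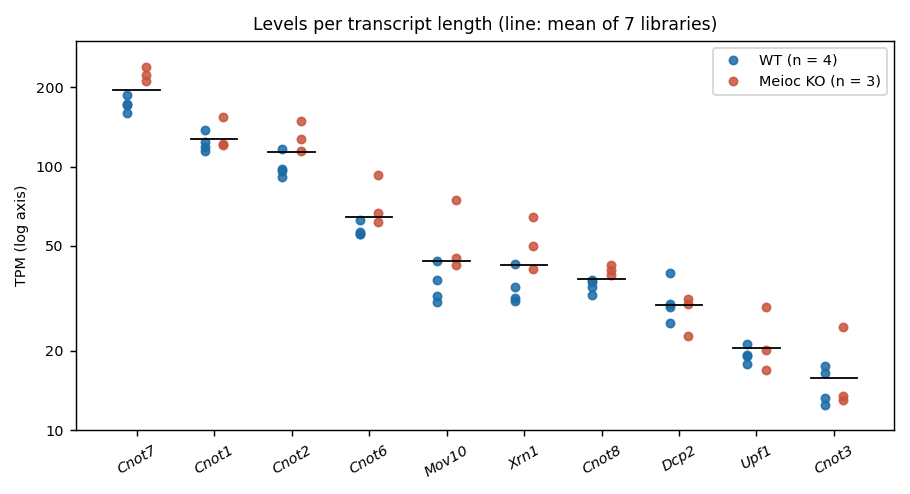
TPM of each decay partner in each library on a log axis, ordered by the mean over 7 libraries (line), with wild type in blue and *Meioc* KO in red. Levels run from 195 TPM for *Cnot7* to 15.8 TPM for *Cnot3*.

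The deposited tables give each annotated transcript, so the isoforms of the members could be described. *Cnot3* and *Cnot8* had 1 listed transcript each. *Xrn1* was divided among Xrn1-209 (3093 bases), with 44.7% to 55.2% of its TPM, Xrn1-202 (10256 bases), with 26.7% to 30.5%, and Xrn1-201. Cnot6-203 held 66.5% to 75.9% of *Cnot6* TPM, Cnot7-203 held 46.1% to 63.5% of *Cnot7* TPM, and Upf1-202 held 63.0% to 84.1% of *Upf1* TPM. *Cnot2* was spread over 6 of its 7 listed transcripts, with Cnot2-213 at 19.9% to 52.8%. The ranges of every isoform share overlapped between wild type and *Meioc* KO.

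A few shares show how a read count is turned into TPM. Dcp2-202 is 398 bases long and had only 2 to 18 estimated counts per library, but it held 10.7% to 54.4% of *Dcp2* TPM. Without it, Dcp2-201 was at 18.5 ± 1.17 TPM (SD, n = 4) in wild type and 21.4 ± 2.33 TPM (SD, n = 3) in *Meioc* KO. The ranges met (17.2 to 19.9 TPM and 19.8 to 24.0 TPM). *Dcp2*, the one member that was positive on the TPM scale, thus had the higher mean of its long transcript in *Meioc* KO. The median of all genes was on that side too, at -0.23 on log2(TPM + 1), and on counts the log2 fold change of *Dcp2* was 0.062 (edgeR). For *Mov10*, Mov10-206 held 100% of TPM in 5 of the 7 libraries, 97.5% in *Meioc* KO replicate 2 and 49.6% in wild-type replicate 1, where Mov10-201 held the other 50.4%.

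**Figure D4:**
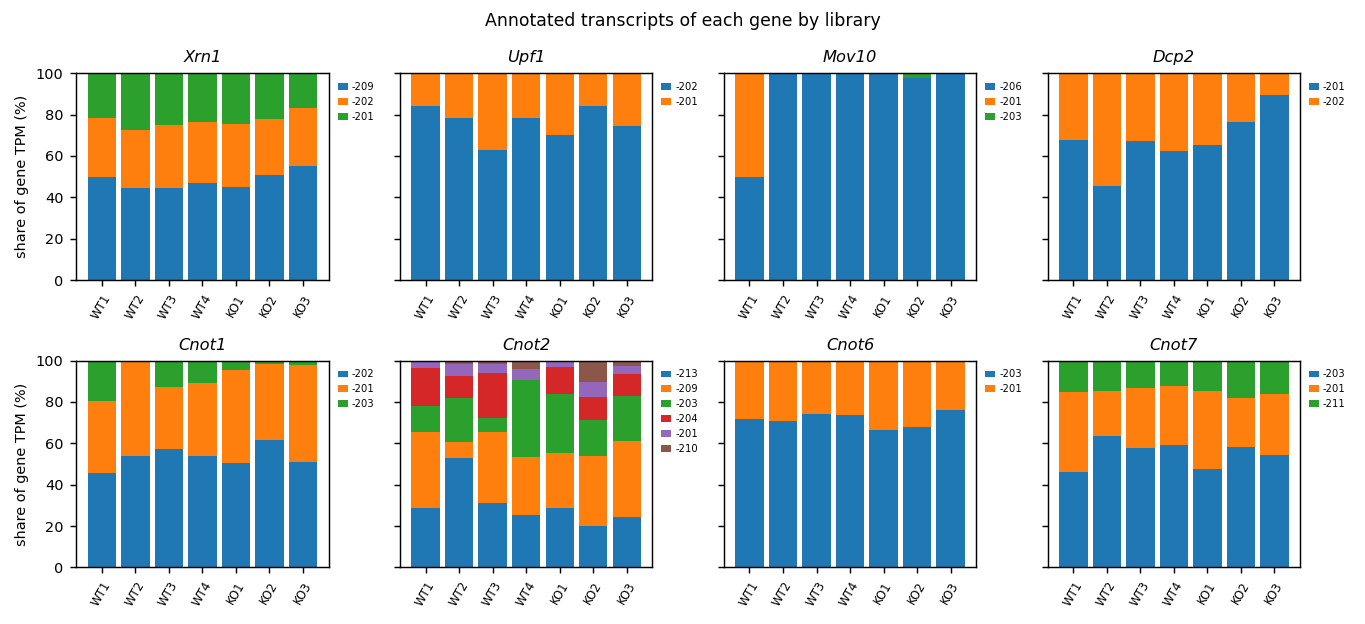
Share of each gene's TPM held by its annotated transcripts in each library (WT, wild type; KO, *Meioc* KO; numbers are replicates), for the 8 members with more than 1 listed transcript. Mov10-201 appears only in wild-type replicate 1, and no share separates the groups.

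The decay partners were set beside 92 other genes of mRNA decay, of which 90 were tested: *Exosc6* is listed at 0 counts and *Nanos2* was below the TPM minimum. Of the 90, edgeR called 9, with 5 of them higher in wild type and 4 lower, beside 11.1% of all genes (7.77% higher and 3.33% lower), and their median log2 fold change was 0.015. These calls changed when single libraries were left out, which also leaves fewer pups to test. Of the 9, 8 were called without wild-type replicate 1 and 8 without *Meioc* KO replicate 1. None of the 9 was called without wild-type replicate 2, 3 or 4 or without *Meioc* KO replicate 3, and 1 of the 9 was called without *Meioc* KO replicate 2. On log2(TPM + 1), 0 of the 90 were called higher and 15 lower (limma), beside 3.23% and 15.3% of all genes. Of the 9, 4 were among these 15: *Btg2*, *Nanos3*, *Samd4* and *Zfp36l1*. An unadjusted p under 0.05 was found for 25 of the 90 (edgeR), beside 30.3% of all genes. By role it was found for 4 of 10 CCR4-NOT and TOB/BTG genes, 2 of 7 PAN, PARN and poly(A) genes and *Xrn2*. It was also found for 4 of 19 decapping, 3 of 17 nonsense-mediated decay, 1 of 15 exosome, 5 of 8 silencing and 5 of 13 adaptor genes.

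Among 10 other genes of CCR4-NOT and the TOB/BTG proteins that bind its CAF1 subunits, 1 was called, beside 11.1% of all genes. This was *Btg2*, at 19.2 to 29.8 CPM in wild type and 30.3 to 58.5 CPM in *Meioc* KO (log2 fold change -0.82, adjusted p = 0.041, edgeR). The highest value of that group was 0.22 (*Tob1*, not called). Of 7 genes of the PAN deadenylase, PARN and the poly(A) tail, 0 were called, beside 11.1% of all genes. Their values ran from -0.27 (*Parn*, a poly(A)-specific ribonuclease) to 0.17 (*Tut4*, which adds uridines to RNA ends). The nuclear exonuclease gene *Xrn2*, related to *Xrn1*, lay at -0.20 on the log2 scale (adjusted p = 0.11, edgeR).

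Of 19 other decapping genes, 2 were called higher in wild type, beside 7.77% of all genes. *Dcps*, which clears the cap left at the end of decay, was at 39.5 to 49.0 CPM in wild type and at 30.6 to 33.9 CPM in *Meioc* KO (log2 fold change 0.47, adjusted p = 0.022, edgeR). *Lsm3*, a subunit of the LSM ring, was at 87.0 to 103 CPM and at 58.0 to 75.1 CPM (log2 fold change 0.46, adjusted p = 0.027, edgeR). The lowest value of the group was -0.22 (*Dcp1b*, a cofactor of DCP2, not called).

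Of 17 other genes of nonsense-mediated decay, 2 were called higher in wild type, beside 7.77% of all genes. *Smg9*, a partner of the kinase that phosphorylates UPF1, rose by 0.53 on the log2 scale (adjusted p = 0.036, edgeR), and *Etf1*, the translation termination factor, by 0.30 (adjusted p = 0.039). The lowest was -0.23 (*Casc3*, of the exon junction complex, not called). Of 15 tested genes of the 3′ to 5′ exosome and its relatives, 0 were called, beside 11.1% of all genes. Their values ran from -0.16 (*Dis3l2*) to 0.41 (*Exosc7*, adjusted p = 0.068, edgeR).

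Of 8 genes of small RNA silencing, 1 was called higher in wild type, beside 7.77% of all genes. This was *Ago4*, an Argonaute protein, at 30.3 to 47.8 CPM against 23.6 to 26.9 CPM (log2 fold change 0.67, adjusted p = 0.023, edgeR). *Ago2*, the Argonaute that can cut its target, had the lowest value, -0.47 (adjusted p = 0.11, edgeR), with 72.7 CPM in *Meioc* KO replicate 2 and 34.6 to 44.0 CPM in the other libraries. Of 13 tested adaptors that bring decay enzymes to chosen messages, 3 were called lower in wild type, beside 3.33% of all genes. These were *Zfp36l1*, which binds AU-rich elements (-0.68), *Samd4*, a Smaug protein (-0.67), and the germ cell gene *Nanos3* (-0.67). The highest value of the adaptors was 0.32 (*Ythdf2*, a reader of N6-methyladenosine, adjusted p = 0.078, edgeR).

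**Figure D5:**
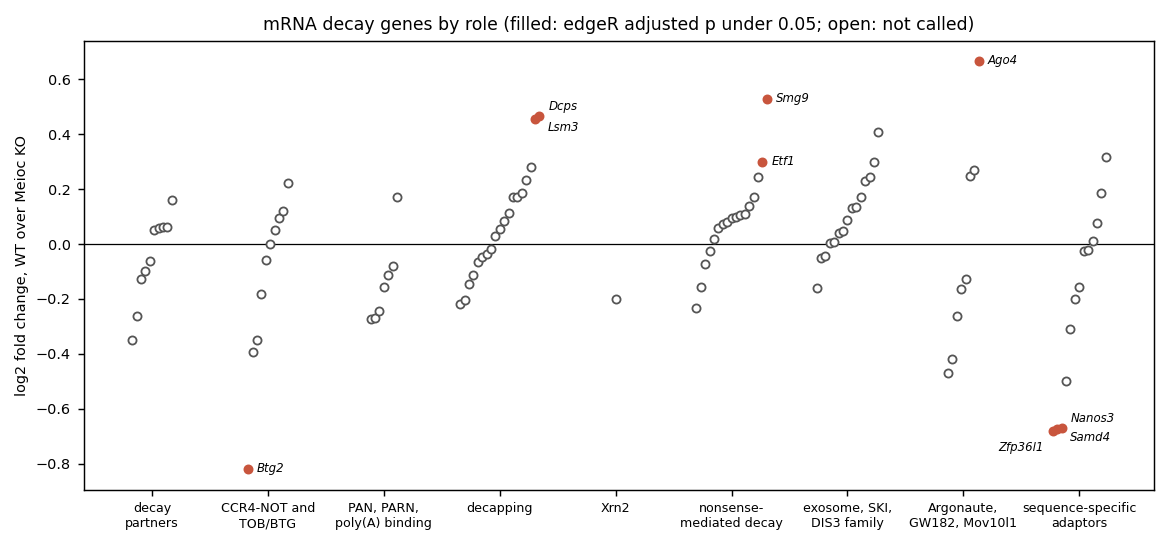
Log2 fold change (wild type over *Meioc* KO, TMM-normalized counts) of the 10 decay partners and of the 90 other tested decay genes by role. Each point is a gene, and filled, named points are the 9 genes with an edgeR adjusted p under 0.05; the decay partners hold none and lie between -0.35 and 0.16.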

How the data were processed

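The authors trimmed single-end reads with cutadapt 1.8 and ran kallisto 0.44.0 on GENCODE Basic vM15 transcripts (mm10) with bias correction and strand. The deposited files give each protein-coding transcript an estimated count, not normalized between libraries, and a TPM that the authors renormalized over protein-coding transcripts. Here 43020 of 43139 transcripts were matched to genes by GENCODE vM21 on GRCm38; the 119 others (0.247% to 0.282% of counts) were left out. Estimated counts were summed by gene, rounded and tested with edgeR 4.0.16 (R 4.3.3; TMM, quasi-likelihood test, no covariates) over all 13630 genes, called at an adjusted p under 0.05; standard errors came from the F statistic. The study's DESeq2 (1.42.0), limma (3.58.1) on log2(TPM + 1) or log2(TPM + 0.1), other scalings and filters, and each library left out were alternatives, as was removal of length or GC trends (those with GC were added after the data were seen). On data simulated from the mean levels and depths of these libraries, edgeR recovered 190 of 200 changed genes among 13630, with 8 false calls. Every change was set to 1 on the log2 scale, with the same assumed dispersion for all genes and no length or GC trend. These counts therefore do not give the recovery or the error rate on the real libraries. Recovery at log2 fold changes as small as those of the 10 members was not tested. A floor of 3 counts was 0.151 to 0.236 CPM, which covers counting error only. All 7 libraries differed by more than counting noise. The ERCC spike-ins named in the labels were not used here.

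The 10 members, the 92 other decay genes and the markers were chosen with earlier results of these data known. Named were all members, *Meioc*, *Ythdc2*, *Rbm46* and *Cnot6l*; of the other decay genes, called genes without overlap between the groups and the highest and lowest of each role; and the 3 genes most correlated with the member of smallest p. *Exosc6* and *Nanos2* were named as untested. The markers *Dazl*, *Tdrd1*, *Clu*, *Des*, *Hsd3b1* and *Csf1r* were named after their values were seen.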

Additional observations from a re-analysis of the deposited data

Results flagged for a closer look

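Among the 4 wild-type libraries, the highest or lowest value was set apart from the others by more of the whole range than Dixon's 95% limit allows in 4 of 43 sets of values tested. Chance gives about 1 in 20 such sets, and the 2 shares of *Mov10* below are 1 event, since they add up to the whole.

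*Mov10* was at 143.0 CPM in wild-type replicate 3 and at 102.4 to 105.4 CPM in the other wild-type libraries. *Cnot6* was at 62.51 TPM in wild-type replicate 1 and at 55.33 to 56.44 TPM in the others. In wild-type replicate 1, Mov10-206 held 49.63% of *Mov10* TPM and Mov10-201 held 50.37%, where the other wild-type libraries had 100% and 0%.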

How the results depend on the processing

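Over 19 alternatives the 10 log2 fold changes gave 190 values, of which 165 kept their sign and their side of the threshold, 7 passed it and 18 changed sign; the cause of these changes was not tested. Of all genes, 1513 were called, against 2331 by DESeq2 on the same genes, 2522 on log2(TPM + 1), 2506 on log2(TPM + 0.1), 131 to 2172 with a library left out and 109 with the replicate block. Of the 10 decay partners, 3 were called on either TPM scale and 1 with length and GC trends removed, and 0 under every other alternative, each library left out included. Of the other decay genes 9 were called, against 15 on either TPM scale, 14 with the length trend or both trends removed, 0 to 14 with a library left out and 0 with the replicate block. Without scaling beyond library size, values turned to -0.019 for *Upf1*, -0.016 for *Dcp2*, -0.015 for *Cnot3* and -0.028 for *Cnot8*. On log2(TPM + 1) and log2(TPM + 0.1) they turned to -0.15 and -0.16 for *Upf1*, -0.093 and -0.093 for *Cnot1*, -0.14 and -0.15 for *Cnot3* and -0.20 and -0.20 for *Cnot8*. The median of all genes was itself -0.23 and -0.25 on these scales. With a library left out, *Cnot3* turned to -0.029 (wild-type replicate 3), -0.054 (*Meioc* KO replicate 1) and -0.056 (*Meioc* KO replicate 3), in a range up to 0.33 (*Meioc* KO replicate 2). *Upf1* ran from -0.067 (*Meioc* KO replicate 3) to 0.23 (*Meioc* KO replicate 2), *Cnot6* from -0.17 (*Meioc* KO replicate 1) to 0.039 (*Meioc* KO replicate 2) and *Cnot8* from -0.0029 (wild-type replicate 4) to 0.076 (*Meioc* KO replicate 1). Calls higher in wild type were 70.0% of all calls, 47.3% with library size only, 17.4% on log2(TPM + 1), 17.7% on log2(TPM + 0.1), 60.4% to 86.3% with a library left out and 86.2% with the block. Same-numbered libraries did not deviate together (r = -0.044, -0.097 and -0.21). This gave no sign that the numbers pair the pups, but so few correlations cannot exclude it. With 4 and 3 pups, the count of calls changed widely when single libraries were left out, which also leaves fewer pups to test.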
